A study of Mus musculus with 2 samples.

Results

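D2 striatal-type medium spiny neurons, called D2 nuclei below, were selected from single nuclei of the mouse amygdala by their raw counts of unique molecular identifiers (UMIs). A nucleus was taken when it had at least 500 genes, at most 5% mitochondrially encoded UMIs, at least 2 UMIs of Drd2, at least 1 each of Rgs9 and Gli3, at most 1 each of Ebf1 and Htr4, and 0 of Slc17a7. Of 18924 nuclei that passed the filters on genes and mitochondrial UMIs, 1075 met the rule, 763 in the wild-type (WT) library and 312 in the library labelled Sema6d-/- (KO). The counts of the 6 rule genes chose the nuclei, so their levels are descriptions of the selection.

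Medium spiny neurons are the GABAergic projection neurons of the striatum, and related neurons lie in the amygdala and the ventral forebrain. The D2 type carries the inhibitory dopamine receptor Drd2 and the adenosine receptor Adora2a, which act on cAMP in opposite directions, and it makes enkephalin from the precursor Penk. The D1 type carries Drd1, which raises cAMP, and makes substance P and dynorphin from Tac1 and Pdyn. Enkephalin acts on the delta and mu opioid receptors.

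The study compared amygdala nuclei of WT and Sema6d-/- mice of strain C57BL6/J, aged 6 to 8 weeks, with 1 library per genotype. Sema6d encodes a transmembrane semaphorin that signals through plexins. Tags were read from the 5' end of transcripts. How many animals each library holds, and of which sex, was not given in the sources used here. Animal, dissection, library preparation and genotype cannot be told apart in this design, so no difference between the libraries was tested. A level is the sum of a gene's UMIs over the nuclei of a type per 1e+06 UMIs of that type (CPM). A ratio is log2 of the KO level over the WT level, with an exact 95% interval that covers counting error only. CPM values of this kind carry no correction for gene length, so levels were compared between libraries and types of nuclei and not between genes.

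The D2 nuclei held 6697122 UMIs in WT and 2796109 in KO. Their median was 8097 UMIs and 3072 genes in WT, and 8477.5 UMIs and 3159 genes in KO, so depth per nucleus was close. The median share of mitochondrially encoded UMIs in D2 nuclei was 0.704% in WT and 0.370% in KO. Scrublet called 50 D2 nuclei in WT and 16 in KO as doublets, and these were kept. The libraries had 116 barcodes in common among nuclei that passed the filters, of which 1 was a D2 nucleus in both. Sema6d stood at 356 CPM in WT D2 nuclei and 322 CPM in KO D2 nuclei (ratio -0.14, -0.26 to -0.03), and at 655 and 702 CPM in all other nuclei. The ratio turned to 0.080 when D2 nuclei with an Alk UMI were left out. The labels do not say which exons the mutation removes, so these 5' counts do not check the genotype label, and WT and KO name the libraries by their labels.

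Levels of the type's markers and of markers of other neurons follow. Drd2, Rgs9 and Gli3 were required by the rule, so their levels do not check the label. Drd2 was at 878 CPM in WT and 858 in KO, and Rgs9, which speeds the end of G protein signals, at 1138 and 1139 CPM. Gli3, a transcription factor of the hedgehog pathway, was at 372 and 312 CPM. Among the markers that the rule did not use, Adora2a stood at 256 CPM in WT and 326 in KO, against 45.8 and 43.8 CPM in all other nuclei. Among the D1 markers, Drd1 stood at 14.6 and 10.0 CPM against 231 and 299 CPM in D1 type nuclei. The D1 type had at least 2 UMIs of Ebf1, at least 1 each of Drd1 and Rgs9 and none of Drd2 or Slc17a7. Its Drd1 level was thus set in part by its own rule. Tac1 was at 27.2 and 29.0 CPM against 160 and 222 CPM there. The dynorphin precursor Pdyn was at 8.66 and 9.30 CPM against 48.7 and 52.1 CPM there. Summed, the 10 listed D1 markers stood at 1288 and 1276 CPM in D2 nuclei, against 3289 and 3598 CPM in D1 type nuclei. The D1 type's rule required Drd1 and Ebf1 and the D2 rule capped Ebf1. The difference in the sums was thus set in part by the 2 rules and does not check the label. In all other nuclei they summed to 3932 and 4285 CPM. None of the 10 was at 0 in D2 nuclei of either library. Slc17a7, the vesicular glutamate transporter of excitatory neurons, was set to 0 by the rule.

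Outside the rule, the genes that stood highest over all other nuclei in both libraries were Adora2a, Nt5e, Gpr6, Myo5c and Oprd1. Adora2a was 5.58 times the level of other nuclei in WT and 7.44 times in KO. Nt5e, the ecto-enzyme that makes adenosine from AMP, stood at 124 CPM in WT and 175 in KO, which was 5.38 and 7.17 times the other nuclei. Gpr6, an orphan receptor that raises cAMP, was 4.78 and 7.10 times as high. Oprd1, the delta opioid receptor, stood at 76.0 and 75.1 CPM, 5.13 times the other nuclei in KO. The 12 genes with the highest such ratio thus held an adenosine-making enzyme, an adenosine receptor and the enkephalin receptor. Cacnb2, a subunit of voltage-gated calcium channels, stood at 5034 and 5307 CPM, 3.41 and 4.44 times the other nuclei, and at 2689 and 2458 CPM in D1 type nuclei. The remaining 6 were Synpo2, Hist1h4k, Mro, Robo3, Myo3b and Gprin3. Among these Synpo2, an actin-binding protein, stood at 143 and 132 CPM, and Gprin3 at 521 and 598 CPM.

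Other Drd2 neurons were compared with the D2 nuclei. The Drd2 Htr4 type had at least 2 UMIs each of Drd2 and Htr4 and 1 of Kctd8, with none of Slc17a7 (467 nuclei in WT, 271 in KO). The Drd2 Sema3e type had at least 2 UMIs each of Drd2 and Sema3e and 1 of Alk, with none of Slc17a7 and no D2 nucleus (177 and 101). Some nuclei belonged to both of these types. Adora2a stood at 216 and 233 CPM in the Drd2 Htr4 type and at 140 and 167 CPM in the Drd2 Sema3e type, below the D2 nuclei in both libraries. Oprd1 had the same order, with 55.3 and 50.9 CPM in the Drd2 Htr4 type and 36.1 and 41.0 CPM in the Drd2 Sema3e type. Otof, a gene of eccentric medium spiny neurons, was at 11.6 and 19.0 CPM in the D2 nuclei against 49.1 and 83.3 CPM in the Drd2 Htr4 type. Sp9, a transcription factor that D2 neurons need to develop, stood at 26.7 and 45.4 CPM in the D2 nuclei against 1.47 and 1.17 CPM in D1 type nuclei. Grik3, a kainate receptor subunit, was at 337 and 315 CPM against 25.1 and 22.2 CPM there. The phosphatase gene Ptprm, at 343 and 355 CPM against 34.8 and 24.3 CPM, also set the D2 nuclei apart from the D1 type in both libraries.

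**Figure D1:**
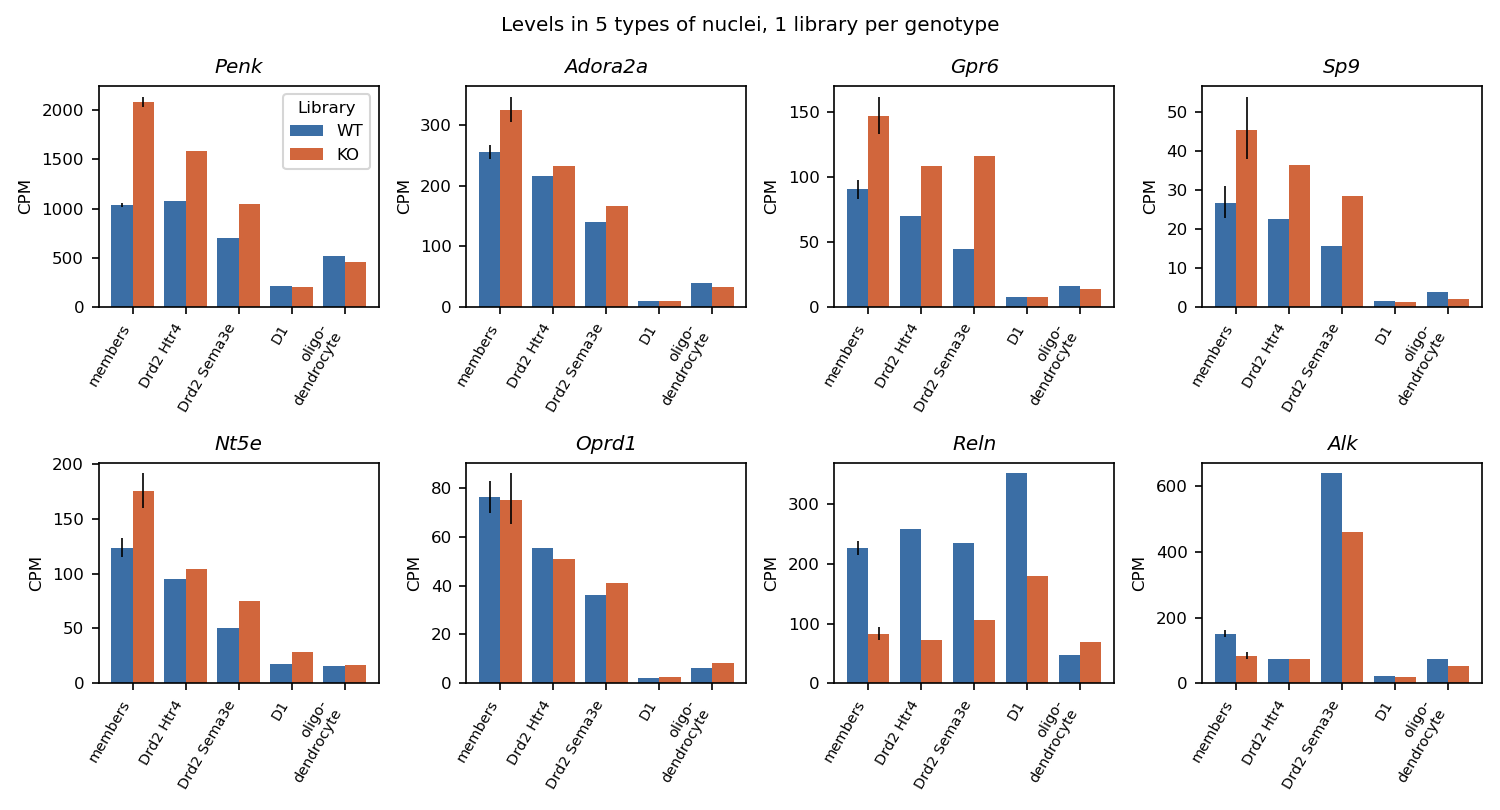
Levels in CPM (y axis) of 8 genes in the D2 nuclei (members), in 3 other types of neurons and in oligodendrocyte type nuclei, with WT bars in blue and KO bars in orange. Black lines on the D2 bars are exact 95% counting intervals and there is 1 library per bar. Penk stood at 1037 CPM in WT D2 nuclei and 2085 CPM in KO D2 nuclei, and Reln at 227 and 82.6 CPM.

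The rule's thresholds left few nuclei near the Drd2 limit. Just inside it, with 2 Drd2 UMIs, were 43 WT and 11 KO nuclei with Adora2a at 254 and 240 CPM. Just outside, with 1 Drd2 UMI and the other conditions met, were 72 and 26 nuclei with Adora2a at 67.9 and 159 CPM. The Gli3 limit divided more nuclei, with 193 and 91 at 1 Gli3 UMI and 265 and 147 at 0. The nuclei without a Gli3 UMI also carried Adora2a, at 189 CPM in WT and 262 in KO, and more Alk than the nuclei with 1 (386 against 255 CPM in WT, 288 against 110 CPM in KO).

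D2 nuclei were 7.07% of WT nuclei (763 of 10791, exact binomial interval 6.59 to 7.57) and 3.84% of KO nuclei (312 of 8133, 3.43 to 4.28). The KO share was 0.543 times the WT share (0.477 to 0.617). Of neuronal nuclei, which had at least 3 UMIs of Snap25, Syt1 and Rbfox3 together, D2 nuclei were 8.14% in WT and 5.14% in KO, a ratio of 0.631. When every nucleus was thinned to 3000 UMIs before the rule was applied, the shares were 5.48% and 3.24%. The D1 type was 7.02% of nuclei in WT and 5.14% in KO, while the oligodendrocyte type (with at least 1 UMI of Mag and none of Gad1 or Gad2 among its conditions) was 3.19% and 9.53%. A different cut of tissue and a different number of cells cannot be told apart from these shares.

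Penk was the D2 marker that differed most between the libraries. It stood at 1037 CPM in WT D2 nuclei (1012 to 1061) and 2085 CPM in KO D2 nuclei (2032 to 2139), a ratio of 1.01 (0.96 to 1.06), or 2.01 times as high in KO. After each nucleus was thinned to 3000 UMIs, 90.7% of WT D2 nuclei had a Penk UMI with a median of 3, and 96.8% of KO D2 nuclei with a median of 6. At least 2 Penk UMIs were present in 72.8% of WT and 90.7% of KO D2 nuclei. The whole distribution stood higher in KO, and the highest single nucleus held 0.634% of the Penk UMIs in WT and 1.36% in KO. Before thinning, 99.2% and 100% of D2 nuclei had a Penk UMI. Oligodendrocyte nuclei, which should lack Penk, held 520 CPM in WT and 460 in KO, and 64.7% and 53.8% of them had a Penk UMI after thinning (136 and 169 nuclei deep enough). Their median depth before thinning was 2409 and 2006 UMIs. The part of free RNA in the Penk difference was not tested.

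The Penk ratio differed in size between types. It was 0.57 (0.51 to 0.62) in the Drd2 Htr4 type, at 1072 CPM in WT and 1588 in KO. In the Drd2 Sema3e type it was 0.59, at 697 and 1051 CPM. D1 type nuclei held 215 and 203 CPM (-0.08), and all other nuclei 415 and 453 CPM. In WT the D2 nuclei and the Drd2 Htr4 type thus held like levels of Penk, and in KO the D2 nuclei held more. These differences between types were not tested.

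**Figure D2:**
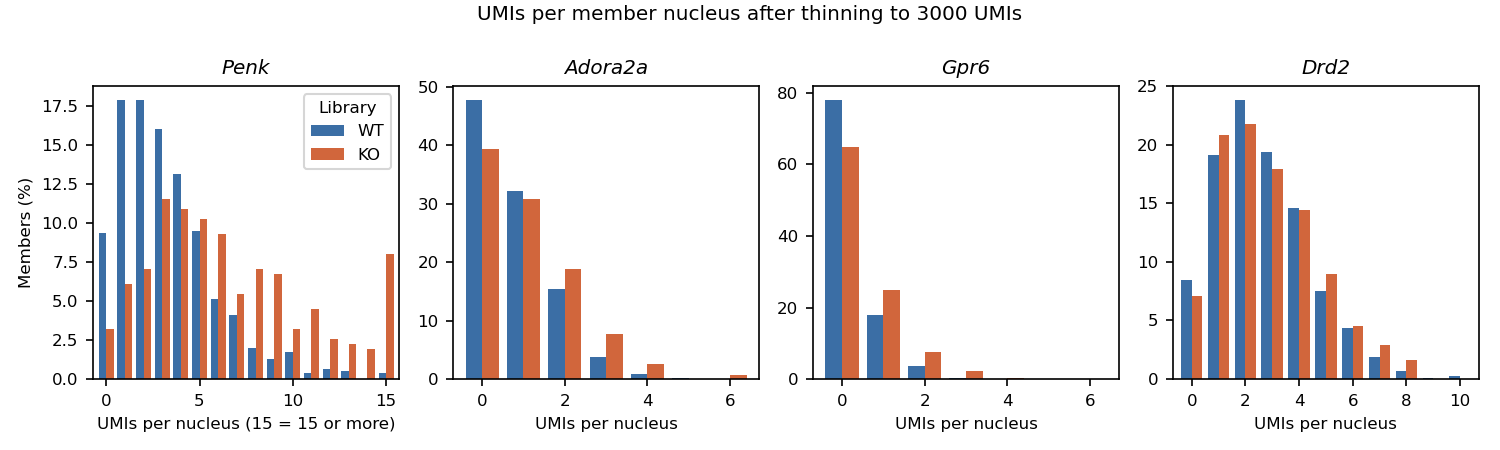
Share of D2 nuclei (members, y axis, in percent) by the number of UMIs of Penk, Adora2a, Gpr6 or Drd2 in the nucleus (x axis) after thinning to 3000 UMIs, with WT in blue and KO in orange. The median for Penk was 3 UMIs in WT and 6 in KO, and the bin at 15 holds nuclei with 15 or more.

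Of the other genes of the enkephalin system that met the limits given next, none was past 1.5-fold. Of 12 listed genes of enkephalin and the opioid receptors, 7 had at least 100 UMIs over both libraries and a mean of at least 20 CPM, the limits used for every ratio counted below, and Penk alone was past 1.5-fold (1.82% of all 6652 genes with these limits were past 1.5-fold higher in KO, and 1.85% lower). The list's median ratio was -0.01, as was that of all genes. Of the 10 listed genes with at least 20 UMIs, 2 were past 1.5-fold higher, Penk among them, and 1 was past 1.5-fold lower. Among all genes with that many UMIs these shares were 7.05% and 7.11%. Pcsk2, a convertase that cuts peptide precursors, stood at 1063 CPM in WT and 1033 in KO (-0.04). Cpe, a carboxypeptidase of the same route, stood at 304 and 303 CPM, and Oprm1, the mu opioid receptor, at 44.9 and 49.7 CPM (0.15). The granule protein genes Chga and Vgf, which were chosen after their values were seen except that Vgf is on the activity list, were higher in KO. Chga stood at 60.3 and 106 CPM (0.81, 0.58 to 1.03), but at 78.1 and 119 CPM in all other nuclei as well. Vgf stood at 51.2 and 84.8 CPM (0.73, 0.48 to 0.97). Nts, the neurotensin precursor, which was also chosen after its value was seen, had a ratio of 1.24 and stood at 26.1 CPM in KO.

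Among the receptors and enzymes that mark D2 neurons, Gpr6 was past 1.5-fold higher in KO, Adora2a and Nt5e were higher by less, and Drd2 and Oprd1 were level. Gpr6 was at 90.6 CPM in WT and 147 in KO (0.70, 0.52 to 0.88), and a Gpr6 UMI was present in 22.0% and 35.3% of D2 nuclei after thinning. In oligodendrocyte nuclei that share was 4.41% and 4.14%. The Gpr6 ratio was 0.62 in the Drd2 Htr4 type, where it stood at 70.5 and 108 CPM. In the Drd2 Sema3e type Gpr6 stood at 44.6 and 117 CPM, and in the D1 type at 7.34 and 7.70 CPM. Adora2a had a ratio of 0.35 (0.23 to 0.47), with an Adora2a UMI in 52.2% of WT and 60.6% of KO D2 nuclei after thinning and in 6.62% and 8.28% of oligodendrocyte nuclei. Nt5e had a ratio of 0.50 (0.34 to 0.67). Drd2 had a ratio of -0.03 and Oprd1 of -0.02.

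The promoters of Gpr6 and Chga, which were higher in KO, and of Drd2, which was not, are shown because cAMP acts on genes through the response element TGACGTCA and its shorter form TGACG. The 250 bases before each start are from RefSeq on GRCm38.p6, 5' to 3' on the strand of the gene, with a match to either form in capitals. Both motifs were searched on both strands, and the short one lies within the long one.
Gpr6: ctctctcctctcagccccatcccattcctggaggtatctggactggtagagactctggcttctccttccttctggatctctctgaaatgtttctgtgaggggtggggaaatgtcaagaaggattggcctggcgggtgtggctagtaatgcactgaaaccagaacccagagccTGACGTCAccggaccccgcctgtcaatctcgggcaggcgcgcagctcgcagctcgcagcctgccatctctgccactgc
Chga: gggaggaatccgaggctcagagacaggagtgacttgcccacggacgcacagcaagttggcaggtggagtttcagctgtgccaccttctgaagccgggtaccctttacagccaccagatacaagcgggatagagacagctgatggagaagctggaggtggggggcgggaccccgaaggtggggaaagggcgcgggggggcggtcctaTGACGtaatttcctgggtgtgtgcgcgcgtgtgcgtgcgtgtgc
Drd2: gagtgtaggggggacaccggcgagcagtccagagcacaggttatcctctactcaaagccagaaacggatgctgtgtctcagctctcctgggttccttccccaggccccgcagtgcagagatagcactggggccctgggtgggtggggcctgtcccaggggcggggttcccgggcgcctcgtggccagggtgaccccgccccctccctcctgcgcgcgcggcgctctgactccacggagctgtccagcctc
The Gpr6 window (chr10:41072291-41072540, minus strand) held 1 full TGACGTCA, whose first base lies 78 bases before the start. The Chga window (chr12:102554691-102554940, plus strand) held TGACG 44 bases before the start, and the Drd2 window (chr9:49340153-49340402, plus strand) held neither. Of 32851 promoters of this length, 1.55% held TGACGTCA and 17.8% held TGACG. The genes and motifs were chosen after the values were seen, and a match of letters is a description and not a site of binding. Penk, Adora2a and Vgf had no entry in the promoter table.

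Across all genes, few were past 1.5-fold between the D2 nuclei of the 2 libraries, but many differed by more than counting error. Of 6652 genes with at least 100 UMIs and a mean of 20 CPM, 121 were past 1.5-fold higher in KO and 123 past 1.5-fold lower, together 3.67%. The median ratio was -0.01 and the 5th to 95th percentiles ran from -0.43 to 0.44. For 1929 of the 6652 genes the counting interval of the ratio left out 0. An interval that leaves out 0 was thus common, also at small ratios. Of the 244 genes past 1.5-fold, 45 were gene models without a name.

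Of the 12 named genes with the highest ratio in KO, some were also higher in all other nuclei. Ptgds, which makes prostaglandin D2 and is abundant in oligodendrocytes and meninges, stood at 41.7 CPM in WT and 140 in KO D2 nuclei (1.75, 1.52 to 1.97). In all other nuclei Ptgds stood at 63.9 and 341 CPM. Glo1, a glyoxalase that clears methylglyoxal, stood at 10.9 and 34.3 CPM (1.66) and at 13.0 and 40.4 CPM in other nuclei. Trf, the iron carrier transferrin of oligodendrocytes, stood at 23.7 and 47.2 CPM (0.99), against 37.6 and 120 CPM in other nuclei. Gpr12, an orphan receptor related to Gpr6, stood at 15.1 and 34.3 CPM in D2 nuclei (1.19, 0.77 to 1.60). In other WT nuclei Gpr12 stood at 13.7 CPM, and its level in other KO nuclei is not reported here. Pparg, a nuclear receptor, stood at 17.6 and 37.9 CPM (1.11) with 24.1 and 25.8 CPM in other nuclei. Pde9a, which degrades cGMP, stood at 24.9 and 46.5 CPM (0.90) and at 36.5 and 62.3 CPM in the Drd2 Htr4 type. The others beside Penk were Pla2g4e, Tubb2a, Meox2, Srm and Colgalt1, with ratios of 0.92 to 1.15. Colgalt1 was under 1.5-fold, at 0.46, after thinning to 3000 UMIs.

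Reln was the most abundant of the 12 genes with the lowest ratio. It encodes reelin, a secreted protein of neuronal positioning and synapses, and stood at 227 CPM in WT D2 nuclei and 82.6 CPM in KO D2 nuclei (-1.46, -1.66 to -1.26), or 2.75 times as high in WT. A Reln UMI was present in 42.9% of WT and 15.4% of KO D2 nuclei after thinning, against 7.35% and 11.2% of oligodendrocyte nuclei. The KO share in D2 nuclei was thus close to that of the oligodendrocyte nuclei deep enough to be thinned. Reln was lower in KO in the other neurons of this kind too, at 259 and 72.8 CPM in the Drd2 Htr4 type and 352 and 179 CPM in the D1 type. In all other nuclei the ratio was -0.41.

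The lowest ratio was that of Crocc, a gene of the ciliary rootlet, at 68.2 CPM in WT and 8.94 in KO (-2.93, -3.58 to -2.35), and it stood at 45.8 and 16.3 CPM in all other nuclei. A Crocc UMI was present in 19.5% of WT and 3.21% of KO D2 nuclei after thinning, and in 3.68% and 3.55% of oligodendrocyte nuclei. Cntnap5c, a neurexin-like adhesion gene, stood at 103 and 14.3 CPM (-2.85), with 27.5% of its KO UMIs in 1 nucleus, and at 291 and 68.9 CPM in D1 type nuclei. Il1rapl2, a synaptic receptor of the interleukin 1 family, stood at 89.0 and 24.0 CPM (-1.89). In that case 1 nucleus held 20.8% of the WT UMIs and 1 nucleus 46.3% of the KO UMIs, and without called doublets the ratio was -0.71. Htr1d, a serotonin receptor, stood at 31.7 and 13.6 CPM (-1.22) and at 14.9 and 7.28 CPM in other nuclei. Car10 and Shisa6 stood at -1.08 and -0.91, but at -0.31 and -0.14 without D2 nuclei that had an Alk UMI before thinning. In D2 nuclei with no Alk UMI left after thinning, the ratios were -0.73 and -0.27. The remaining genes were Ccdc28b at -1.32, Asb7 and Txlna at -1.08, Zfp933 at -1.01 and Etv5, which stood at 39.4 and 19.7 CPM.

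Some of these genes lie near each other. In mm10, Ccdc28b spans chr4:129619274-129623947 and Txlna chr4:129626078-129641065, so they are neighbours, and both were lower in KO. Htr1d (chr4:136423524-136444398), Crocc (chr4:141016637-141060550) and Zfp933 (chr4:147822986-147848366) are on the same chromosome, where Srm (chr4:148591503-148594993) was higher in KO (0.99). Glo1 (chr17:30584936-30626871) and its neighbour Btbd9, which was chosen after its value was seen, were higher in KO by 1.66 and 0.88. The share of genes past 1.5-fold was 6.87% on chromosome 17, 5.57% on chromosome 4 and 5.05% on chromosome 2, which carries Sema6d, against 3.67% over all chromosomes. Pla2g4e, a phospholipase (chr2:120166412-120245335), and Kcnip3 (chr2:127456498-127522094) lie on either side of Sema6d (chr2:124089969-124667770). Pla2g4e stood at 15.7 and 34.7 CPM in D2 nuclei and at 21.8 and 38.8 CPM in all other nuclei. Kcnip3, a calcium-binding subunit of potassium channels also called DREAM, stood at 104 and 70.8 CPM in D2 nuclei (-0.55) and at 125 and 66.5 CPM in other nuclei. Both genes thus differed in D2 nuclei and elsewhere in the same direction.

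**Figure D3:**
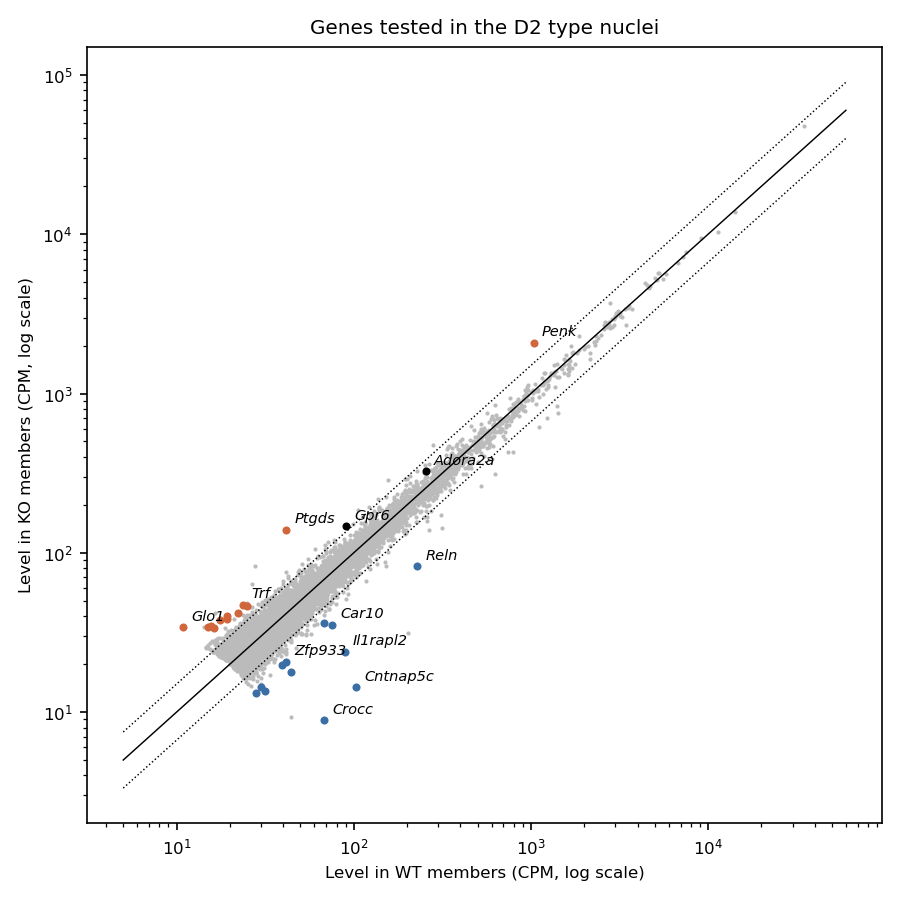
Level in KO D2 nuclei against level in WT D2 nuclei, in CPM on log scales, for the 6652 genes with at least 100 UMIs and a mean of 20 CPM. The solid line is equality and the dotted lines are 1.5-fold. Orange and blue points are the 12 named genes with the highest and the lowest ratio, and black points are Adora2a and Gpr6. Penk and Reln stand apart from genes of like level.

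The lists below were set beside the background of 1.82% of genes past 1.5-fold higher and 1.85% lower. Genes that all medium spiny neurons share were nearly level. Of 21 such genes, all with enough UMIs, 1 was past 1.5-fold and the median ratio was -0.03. Phactr1, a regulator of actin and phosphatase 1, stood at 14157 CPM in WT and 13818 in KO (-0.04), and the phosphodiesterase Pde10a at 5767 and 5614 CPM (-0.04). The transcription factors Foxp1, Meis2 and Rarb, which set striatal identity, had ratios of -0.04, -0.02 and 0.00. Gad1 and Gad2, which make GABA, had ratios of -0.03 and 0.00.

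Dopamine and adenosine receptor signalling joins the receptors to cAMP, and 27 of its 32 listed genes had enough UMIs. Of these 2 were past 1.5-fold, both higher in KO and Gpr6 among them, and the median was -0.03. Adcy5, the cyclase on which these receptors act, stood at 1011 and 944 CPM (-0.10). Gnal, the stimulatory G protein of striatal neurons, stood at 759 and 690 CPM (-0.14), and Itpr1, the calcium release channel, at 906 and 788 CPM (-0.20). Of 13 cyclic nucleotide phosphodiesterases with enough UMIs, only Pde9a was past 1.5-fold, and the median was -0.10. Pde7b, which degrades cAMP, was the abundant member with a lower level, at 1614 and 1309 CPM (-0.30), and it was lower by a like amount in D1 type nuclei (-0.32).

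Lists of synaptic genes differed in sign, and 1 gene in all of them was past 1.5-fold. Of all 6652 genes, 3478 had a ratio below 0 and 3174 above 0. Of 19 scaffolds and kinases of the postsynaptic density, 18 had a ratio below 0 and 1 was past 1.5-fold (Ppp1r9b, which encodes spinophilin, at 46.9 and 31.1 CPM), with a median of -0.20. The Ppp1r9b ratio of -0.59 was -0.51 as a mean of single nuclei, which is under 1.5-fold. The scaffold gene Dlgap3 was lower, at 255 and 182 CPM (-0.48), while Dlg2 was level at 7230 and 7219 CPM. Of 21 glutamate receptor genes none was past 1.5-fold and 15 were below 0, with a median of -0.11. Summed over each list, the ratio in D2 nuclei was -0.08 for the scaffolds and kinases and -0.03 for the glutamate receptors. In all other nuclei these were -0.14 and -0.09, so lower sums were not particular to the D2 nuclei. Gria1 was at 1708 and 1438 CPM (-0.25), whereas Gria2, which makes AMPA receptors impermeable to calcium, was at 1357 and 1505 CPM (0.15). Grm5 was level at 3572 and 3546 CPM. Of 19 genes of GABA synthesis, transport and receptors none was past 1.5-fold, 13 were above 0, and the median was 0.06. Slc32a1, the vesicular GABA transporter, had the highest ratio among them (0.58, 0.35 to 0.80), at 62.1 and 92.6 CPM. Among 43 potassium, sodium and calcium channels none was past 1.5-fold, and the median was -0.01. Kcnd2, an A-type potassium channel, was at 5177 and 5136 CPM, while Kcnq5, an M-current channel, was at 2291 and 2026 CPM (-0.18).

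Immediate early genes, which neurons transcribe on activity, had mostly lower levels in KO. The summed level of 20 immediate early transcription factors was 221 CPM in WT D2 nuclei and 144 CPM in KO D2 nuclei (-0.61, -0.78 to -0.45). Only Egr1 and Per1 had enough UMIs for the limits above. Of the 15 with at least 20 UMIs, 14 were below 0, with a median of -0.60, against 50.2% of the 12798 genes with that many UMIs. Egr1 stood at 53.5 and 30.8 CPM (-0.80, -1.15 to -0.45), and Nr4a3, an orphan nuclear receptor, at 13.3 and 3.22 CPM (-2.05). Npas4 had 45 UMIs in WT and 1 in KO (-4.23, -9.57 to -1.68). Arc, a synaptic regulator of AMPA receptors on the list of effectors, stood at 17.9 and 5.36 CPM (-1.74, -2.62 to -0.96). In all other nuclei the summed ratio of the transcription factors was -0.59, so the lower level was not particular to the D2 nuclei. The mitochondrial share given above was lower in KO in D2 nuclei as well, and its part in this result was not tested. Of 8 effector genes with enough UMIs, Vgf was past 1.5-fold higher and Rheb past 1.5-fold lower (46.6 and 30.4 CPM, and under 1.5-fold at -0.45 without D2 nuclei with an Alk UMI), with a median of -0.33, and Homer1 stood at 441 and 339 CPM (-0.38). Of the 20 effectors with at least 20 UMIs, 16 were below 0, with a median of -0.47. Past 1.5-fold were 9 lower and 3 higher, against 7.11% and 7.05% of all genes with that many UMIs. The summed ratio of the effectors was -0.27 in D2 nuclei and -0.38 in all other nuclei.

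Transcription factors of the striatum included 2 of 19 past 1.5-fold, both higher in KO, with a list median of -0.12. These were Sp9 (0.76, 0.43 to 1.10, but 0.45 without nuclei with 3 or more oligodendrocyte UMIs) and Dlx6, a homeobox gene of GABAergic neurons, at 21.7 and 34.0 CPM (0.65). Neither was higher in KO by 1.5-fold in all other nuclei, where Sp9 stood at 9.21 and 9.94 CPM and Dlx6 had a lower level in KO than in WT. The hedgehog list had 4 genes with enough UMIs, all with a ratio below 0, and the rule gene Gli3 was among them. Of the 7 with at least 20 UMIs, 5 were below 0, with a median of -0.13, against 50.2% of all genes with that many UMIs. Sufu, an inhibitor of the pathway, stood at 34.0 and 22.2 CPM (-0.62, but -0.35 after thinning) and Ptch1, the receptor, at 47.5 and 32.9 CPM (-0.53). Gli3 belongs to the rule, and Ptch1 stood at 52.2 and 38.4 CPM in other nuclei.

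Semaphorins and their receptors were the family of the mutated gene. Of 12 with enough UMIs none was past 1.5-fold, and the median was -0.06. Plxna4, a plexin that binds Sema6 proteins, was level at 240 and 240 CPM, and Sema3e was at 350 and 324 CPM (-0.11). Sema3a, a secreted repellent, was at 73.8 and 102 CPM (0.46, 0.25 to 0.67), with a like difference in other nuclei (80.6 and 112 CPM). Among 6 endocannabinoid genes Daglb was past 1.5-fold higher (16.9 and 26.1 CPM, 0.63), and Cnr1, the cannabinoid receptor, stood at 767 and 942 CPM (0.30, 0.23 to 0.36) against 309 and 282 CPM in other nuclei.

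**Figure D4:**
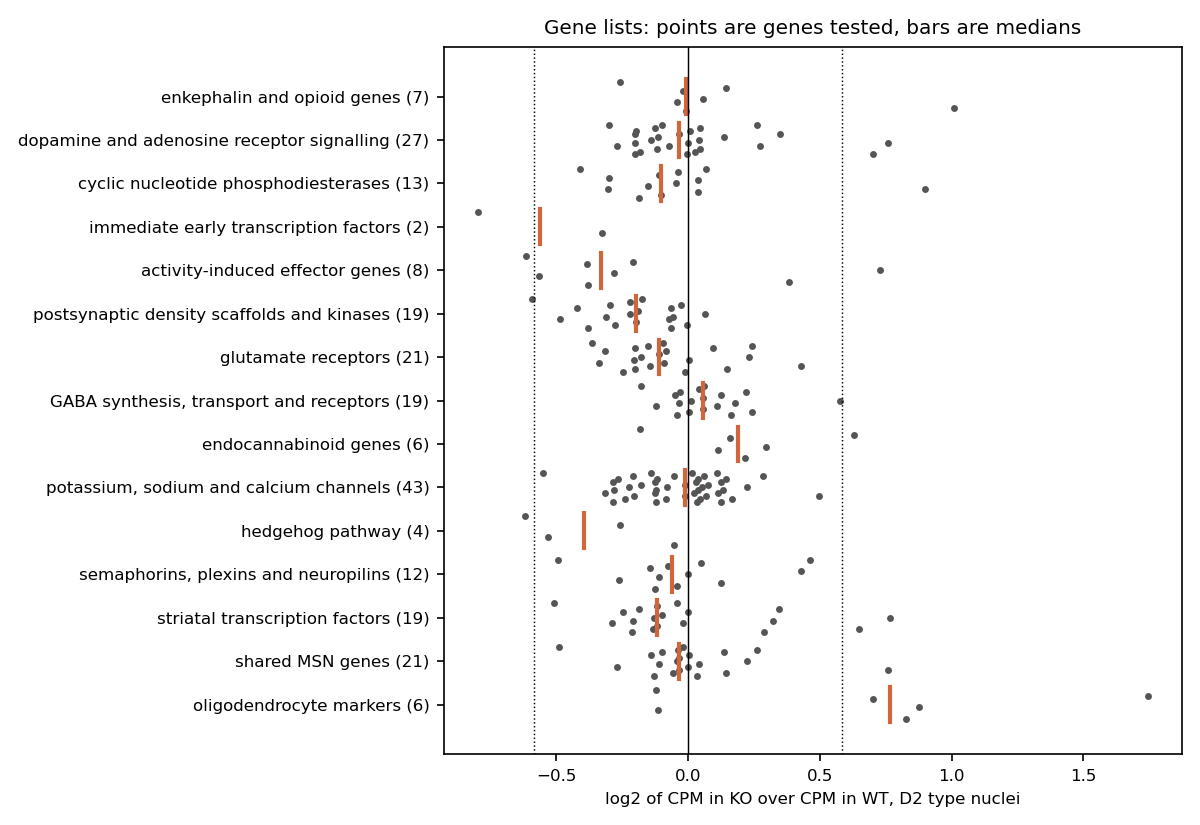
Ratio of KO to WT (x axis, log2 of CPM) in D2 nuclei for each gene with enough UMIs in 15 lists, with the number of such genes in brackets. Orange bars are list medians and dotted lines are 1.5-fold. The medians of most lists lie close to 0, with oligodendrocyte markers at 0.77. On the lower side, immediate early transcription factors (2 genes) were at -0.56, the hedgehog pathway at -0.39 and activity-induced effector genes at -0.33.

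Compartment genes of the striatum differed little between the libraries. Neither of the lists of 9 patch and 9 matrix genes with enough UMIs had a gene past 1.5-fold, and their medians were 0.05 and 0.04. Summed over the list, patch genes stood at 2097 CPM in WT and 1945 in KO (-0.11, -0.15 to -0.06), and matrix genes at 1910 and 2000 CPM (0.07, 0.02 to 0.11). The sums thus had opposite signs, each with a counting interval that left out 0, as they had in all other nuclei (-0.16 and 0.12). Of 5 dorsal striatum genes Reln was past 1.5-fold lower and the other 4 were above 0, such as Coch at 55.7 and 79.0 CPM (0.50), with a list median of 0.25. All 4 ventral striatum genes were above 0, with a median of 0.11, and Wfs1 was past 1.5-fold higher at 31.7 and 50.4 CPM (0.67). The Wfs1 ratio was 0.20 without D2 nuclei with 3 or more oligodendrocyte UMIs. Of 9 ventral genes with at least 20 UMIs, 4 were past 1.5-fold higher, against 7.05% of genes with that many UMIs. The summed ratio of the ventral list was 0.17 in D2 nuclei and 0.19 in all other nuclei, so the higher sum was not particular to the D2 nuclei. None of the 3 eccentric medium spiny neuron genes with enough UMIs was past 1.5-fold, and their median was -0.15.

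RNA of other cell types was present in the D2 nuclei and differed between libraries. Oligodendrocyte markers, 12 genes of which none was at 0, summed to 517 CPM in WT and 732 in KO D2 nuclei, and to 853 and 1669 CPM in all other nuclei. Of the 6 with enough UMIs, 4 were past 1.5-fold higher, among them Ptgds, Mal (0.88, but 0.51 without called doublets) and Cnp (0.70, but 0.56 without nuclei with a Drd1 or Ebf1 UMI), whereas Mbp (241 and 222 CPM) and Mobp (40.5 and 37.2 CPM) were not. A Ptgds UMI was present in 8.16% of WT and 33.0% of KO D2 nuclei after thinning, and in 53.7% and 66.3% of oligodendrocyte nuclei. With D2 nuclei that held 3 or more UMIs of 5 oligodendrocyte genes left out, 666 WT and 175 KO nuclei remained, and the Penk ratio was 0.96. Astrocyte markers summed to 1050 and 1156 CPM, mostly Slc4a4, which these neurons carry above other nuclei. Precursor markers summed to 118 and 122 CPM and excitatory neuron markers to 306 and 353 CPM. Microglia markers summed to 85.6 and 83.0 CPM and vascular markers to 4.03 and 8.94 CPM, the latter with 1 of 11 genes at 0 in WT and 4 of 11 in KO. Interneuron markers summed to 942 and 1161 CPM, mostly Cnr1, which these neurons carry above other nuclei. Of 11 interneuron markers with at least 20 UMIs, 4 were past 1.5-fold higher and 1 lower. Of 10 such astrocyte markers, 4 were past 1.5-fold higher and 0 lower. Among all genes with that many UMIs these shares were 7.05% and 7.11%. Of the Sst UMIs in KO, 1 nucleus held 35.5%. Without the highest nucleus of each library the Sst ratio fell from 0.70 to 0.10. The part of this RNA in the ratios of other genes was not tested.

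The D2 nuclei were not uniform. Among nuclei thinned to 3000 UMIs, the genes whose counts varied most for their mean were Malat1, Gpc5, Erbb4, Adarb2, Pde1c, Prkg1, March1, Cntnap2, Pcdh9 and Egfem1. Single nuclei made part of this, since 1 KO nucleus held 62.4% of the Adarb2 UMIs and 34.7% of the Erbb4 UMIs. Pde1c, a phosphodiesterase activated by calmodulin, had the same level in both libraries (390 and 400 CPM), and its Fano factor, the variance over the mean, was 5.58 and 4.47 times that of genes of like mean. Malat1, a nuclear non-coding RNA, differed in level too, at 35045 CPM in WT and 48168 in KO (0.46), and at 27332 and 36284 CPM in other nuclei.

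An axis of this variation was marked by Alk, a receptor tyrosine kinase that also defines the Drd2 Sema3e type. It was chosen after the values were seen, and nuclei were divided by the presence of an Alk UMI after thinning. Alk UMIs were present in 142 of 760 WT D2 nuclei (18.7%, 16.0 to 21.6) and in 38 of 312 KO D2 nuclei (12.2%, 8.76 to 16.3), against 9.56% and 11.8% of oligodendrocyte nuclei. The KO share was thus close to that of the oligodendrocyte nuclei deep enough to be thinned (136 in WT and 169 in KO, with 208 and 606 left out). Alk stood at 151 CPM in WT and 83.0 in KO D2 nuclei (-0.87). Median depth was 7600 UMIs with Alk and 8142 without it in WT, and 7765 and 8506 in KO.

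The genes named next were chosen, after their values were seen, for a large difference of 1 sign in both libraries. Gpc6, a heparan sulphate proteoglycan of the cell surface, stood at 1117 CPM with Alk and 194 CPM without it in WT, and at 1066 and 174 CPM in KO. Sema5b, a patch gene, stood at 159 and 36.9 CPM in WT and 174 and 33.6 CPM in KO. Nxph1, a neurexin ligand, stood at 232 and 31.2 CPM in WT and 204 and 25.9 CPM in KO. The kainate receptor Grik1 and the serotonin receptor Htr7 were also higher with Alk, by 2.96 and 3.87 on the log2 scale in WT and by 3.73 and 2.35 in KO. Sgk1, a kinase on the matrix list, went the other way, at 114 with Alk and 373 CPM without it in WT, and at 91.4 and 311 CPM in KO. Kcnq3, Thsd7a and Cntnap2 were lower with Alk too. Penk was lower as well (739 against 1106 CPM in WT, 1362 against 2181 CPM in KO). The Penk ratio between the libraries was 0.88 (0.72 to 1.05) in Alk nuclei and 0.98 (0.93 to 1.03) in the rest, so it was present on both sides of this division. Reln stood at -0.90 in Alk nuclei and -1.56 in the rest. For other genes the values differed between the libraries, and these differences were not tested. Il1rapl2 was higher with Alk by 2.34 in WT and 0.71 (-0.32 to 1.63) in KO. Cntnap5c differed by 0.03 in WT and 3.05 in KO, Reln by -0.61 and 0.05, and Adora2a by -0.47 and 0.05.

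**Figure D5:**
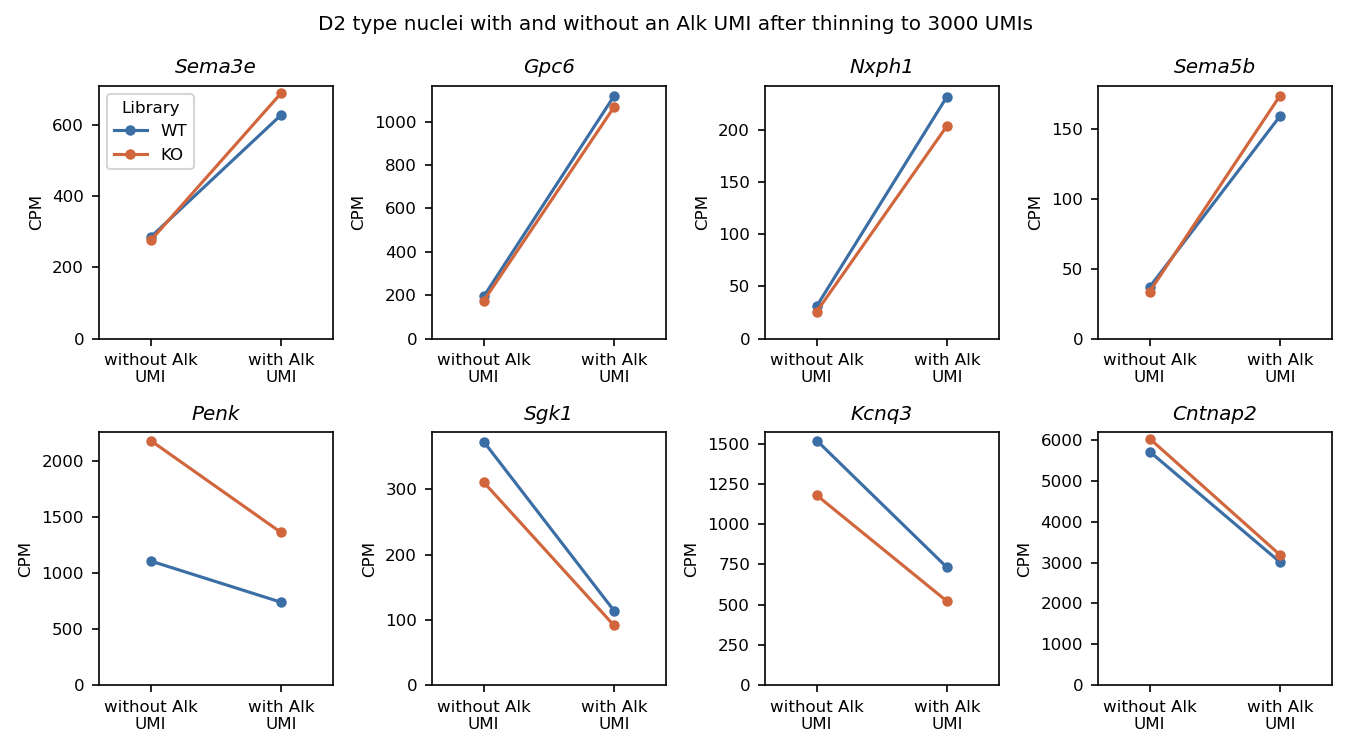
Level in CPM (y axis) of 8 genes in D2 nuclei without and with an Alk UMI after thinning to 3000 UMIs, in WT (blue) and KO (orange). Lines join the 2 sets of nuclei of a library. Gpc6, Nxph1, Sema3e and Sema5b were higher and Sgk1, Kcnq3, Cntnap2 and Penk lower with Alk in both libraries, and Penk was higher in KO on both sides.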

How the data were processed

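Per the labels, nuclei were profiled with the 10x 5' kit, and per the submitters' processing notes Cell Ranger 6.0.0 was used with mm10. The deposited matrices hold raw UMI counts per gene and barcode. Identifiers were matched to symbols for 32158 of 32285 genes. Counts were summed over the nuclei of a type and scaled to CPM (Python 3.11.15, numpy 2.4.6, scipy 1.17.1). Intervals are exact Poisson, conditional binomial or Clopper-Pearson intervals at 95%. Nuclei were thinned to 3000 UMIs with a fixed seed, shallower ones left out. Scrublet in scanpy 1.11.5 called doublets at an expected 0.8% per 1000 nuclei, and they were kept except in an alternative. TMM factors came from edgeR 4.0.16 in R 4.3.3. The scripts were tested on simulated data.

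The D2 nuclei, the 29 gene lists and the rules were chosen with earlier results of these data known. Genes were named as type markers, as up to 6 of the highest CPM in each list, as the 12 highest and 12 lowest ratios and the 12 highest against other nuclei, as the 10 most variable, and as list genes past 1.5-fold. Other genes were named after their values were seen. The listed gene Gpr52 was not analysed here. Results for some other genes are not reported here.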

Additional observations from a re-analysis of the deposited data

Results flagged for a closer look

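For 3 genes the D2 nuclei differed in direction from nuclei they were set beside, and none of these differences was tested. Car10, a carbonic anhydrase-related gene, had a ratio of -1.08 (-1.41 to -0.77) in D2 nuclei and 0.25 in all other nuclei. The Car10 ratio was -0.31 in D2 nuclei without an Alk UMI before thinning, and -0.73 in those without one after thinning. Il1rapl2 had a ratio of -1.89 in D2 nuclei and 1.11 (0.92 to 1.30) in the Drd2 Htr4 type. In D2 nuclei 46.3% of its KO UMIs came from 1 nucleus. Sema6d had a ratio of -0.14 (-0.26 to -0.03) in D2 nuclei and 0.10 in all other nuclei. In D2 nuclei without an Alk UMI before thinning it was 0.080, where the direction is that of the other nuclei.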

How the results depend on the processing

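No paired analysis was possible because there was 1 library per genotype. Of 8 alternatives for the share of D2 nuclei, 7 kept the KO to WT ratio within its interval, and it was 0.631 as a share of neuronal nuclei. Of 24 alternative counts of genes past 1.5-fold, 20 stayed within 1.5 times. With 20 UMIs and no CPM minimum there were 902 higher and 904 lower, and the lower count was 191 after thinning to 3000 UMIs and 195 without nuclei with 3 or more oligodendrocyte UMIs. The genes differed even where the counts did not, since after thinning 40 of the 121 higher and 68 of the 123 lower genes were shared, and 77 and 97 without nuclei with oligodendrocyte UMIs. Of 274 list medians under alternatives, 5 moved. The ventral striatum median of 0.11 was 0.60 without nuclei with an Alk UMI and 0.67 at 1 UMI or more. The interneuron median of 0.40 was 0.058 without nuclei with oligodendrocyte UMIs and 0.10 at 1 UMI or more, and the oligodendrocyte median of 0.77 was 0.29 without those nuclei. For 171 named genes, 4 of 1709 values reversed. Nxph1 turned from -0.56 to 0.72 without doublets, Sema6d from -0.14 to 0.080 without Alk nuclei, and Pcdh9 to -0.11 and Sst to -0.069 without nuclei with oligodendrocyte UMIs. The alternatives without Alk nuclei or oligodendrocyte UMIs used counts before thinning and were chosen after seeing the data. The cause was not tested. The Penk ratio ran from 0.96 to 1.04 over all alternatives. The median of all genes was -0.041 with TMM scaling and -0.0025 with median-of-ratios scaling. The 312 KO nuclei limit the depth, and ratios of genes with few UMIs have wide counting intervals.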
